A study of Mus musculus with 35 samples.

Results

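Promoters carrying both the activating mark H3K4me3 and the Polycomb mark H3K27me3 were set against promoters carrying H3K4me3 alone in wild-type (WT) mouse pre-B cells. The members are the H3K4me3 peaks of the 19 autosomes whose centre lies within 2500 bp of an annotated transcription start site (TSS). A promoter peak was called bivalent if at least 1 bp of it overlapped an H3K27me3 peak of the same cells, and H3K4me3-only otherwise. Of 18457 autosomal H3K4me3 peaks, 11458 were promoter peaks, of which 2938 were bivalent and 8520 H3K4me3-only.

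The series holds 35 chromatin immunoprecipitation sequencing (ChIP-seq) libraries of pre-B cell progenitors grown adherent to stroma, 17 from WT mice and 18 from mice with a dominant-negative Ikaros allele and CD2-Cre. Only the 16 WT peak lists are used here. The WT cells came from WT mice, are labelled with no transgene or Cre, and were grown for 3 to 8 passages. Each mark or factor had 1 WT library and the labels name no replicates, clones or pools, so no spread between cultures is known and no test was made. The intervals given with shares are exact 95% Clopper-Pearson intervals. They cover counting error only, and neighbouring peaks of the same library are not independent replicates. The number of reads per library is not given in the sources used here. On the autosomes the 18457 H3K4me3 peaks had a median width of 1690 bp. The 64622 H3K27me3 peaks had a median width of 709 bp, and the longest spanned 206005 bp.

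H3K4me3 is laid down around the start sites of genes by Trithorax-group (SET1 and MLL) methyltransferases, and H3K27me3 by the Polycomb repressive complex PRC2. Promoters with both marks were described first in embryonic stem cells, where many belong to developmental regulators that are held at a low level, and they also occur in lineage-restricted cells. RNA polymerase II phosphorylated on serine 5 (RNAPII) marks polymerase at initiation and shortly after it, and Ikaros is a zinc-finger DNA-binding protein of lymphocytes, found with the NuRD chromatin remodelling complex. In a bulk library, both marks on the same chromosome cannot be told apart from a mixture of cells or alleles that carry 1 mark each.

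The promoter DNA of 5 genes is shown as examples. RefSeq gives, for GRCm38.p6, the 300 bases that run from 250 before to 50 after each start site. They are those of the bivalent genes Hoxa13 (chr6:52260831-52261130, minus strand), a homeobox regulator of limb and genital development, Plxnc1 (chr10:94944796-94945095, minus strand), a semaphorin receptor, and Fosl2 (chr5:32136222-32136521, plus strand), an AP-1 subunit. The H3K4me3-only genes are Vpreb3 (chr10:75948050-75948349, plus strand), a pre-B cell protein related to the surrogate light chain, and Rps19 (chr7:24884426-24884725, plus strand), a protein of the small ribosomal subunit. Capitals mark CpG dinucleotides, the sequence feature by which mammalian promoters are usually divided.
Hoxa13: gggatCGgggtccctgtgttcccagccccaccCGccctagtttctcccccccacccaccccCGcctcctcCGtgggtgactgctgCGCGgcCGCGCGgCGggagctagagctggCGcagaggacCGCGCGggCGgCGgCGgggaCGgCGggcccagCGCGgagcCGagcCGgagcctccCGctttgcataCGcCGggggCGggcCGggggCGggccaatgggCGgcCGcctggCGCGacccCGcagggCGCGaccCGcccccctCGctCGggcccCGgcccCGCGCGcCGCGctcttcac
Plxnc1: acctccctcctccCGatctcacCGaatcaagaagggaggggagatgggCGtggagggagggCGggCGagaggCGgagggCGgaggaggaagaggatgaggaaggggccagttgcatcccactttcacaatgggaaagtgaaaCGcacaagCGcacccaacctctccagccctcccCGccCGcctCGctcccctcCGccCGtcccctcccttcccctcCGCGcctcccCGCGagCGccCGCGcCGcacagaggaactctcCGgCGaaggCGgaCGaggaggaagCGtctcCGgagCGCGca
Fosl2: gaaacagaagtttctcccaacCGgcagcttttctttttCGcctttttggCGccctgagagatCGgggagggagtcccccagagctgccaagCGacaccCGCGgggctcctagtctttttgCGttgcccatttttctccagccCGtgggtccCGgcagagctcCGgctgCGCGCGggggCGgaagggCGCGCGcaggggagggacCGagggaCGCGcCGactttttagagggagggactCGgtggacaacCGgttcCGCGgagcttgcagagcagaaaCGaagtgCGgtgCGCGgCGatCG
Vpreb3: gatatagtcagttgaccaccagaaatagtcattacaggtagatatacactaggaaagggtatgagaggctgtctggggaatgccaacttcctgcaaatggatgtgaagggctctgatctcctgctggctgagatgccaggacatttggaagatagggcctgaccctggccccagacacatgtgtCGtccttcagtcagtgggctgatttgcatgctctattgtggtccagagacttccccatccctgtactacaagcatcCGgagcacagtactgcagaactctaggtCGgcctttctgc
Rps19: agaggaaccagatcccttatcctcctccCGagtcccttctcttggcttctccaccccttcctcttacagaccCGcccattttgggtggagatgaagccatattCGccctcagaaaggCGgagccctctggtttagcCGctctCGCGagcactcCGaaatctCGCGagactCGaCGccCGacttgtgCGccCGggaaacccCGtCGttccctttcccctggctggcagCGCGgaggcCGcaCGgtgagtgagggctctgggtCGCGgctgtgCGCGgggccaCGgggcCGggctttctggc

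The bivalent Hoxa13, Plxnc1 and Fosl2 windows held 45, 30 and 32 CpG dinucleotides. The H3K4me3-only Rps19 window held 27 and the Vpreb3 window 3. The observed over expected CpG ratio was 0.918 for Hoxa13, 0.843 for Plxnc1 and 1.03 for Fosl2, against 0.868 for Rps19 and 0.154 for Vpreb3. The 5 genes were picked after their peaks were seen, to show a bivalent promoter without RNAPII in a Polycomb domain, a highly ranked one without RNAPII, one with RNAPII, a B lineage promoter and a ribosomal one. They do not stand for their classes. A comparison of CpG content over the classes is void, because a RefSeq window was found for 71.7% of bivalent and 78.4% of H3K4me3-only promoters, under the minimum of 80% set for it. In the deposited annotation, the label of the peak centre was a CpG island at 18.6% of bivalent promoters (17.2 to 20%). It was one at 19.8% of H3K4me3-only promoters (18.9 to 20.7%). Each centre has 1 such label, and a centre inside an island may carry another, such as promoter or exon. These shares therefore do not compare the CpG island content of the classes.

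Of the promoter H3K4me3 peaks 25.6% (24.8 to 26.5%) were bivalent. By gene, 2858 of 11098 genes with a promoter peak, 25.8%, were bivalent, and 8240 had H3K4me3 alone. 326 genes had more than 1 promoter peak, and 52 of them had a peak of each class. Such a gene was counted as bivalent. Phc2, which codes for a Polyhomeotic subunit of the Polycomb complex PRC1, was among them, with a bivalent peak of 820 bp at rank 11027 and an H3K4me3-only peak of 2877 bp at rank 1303. Ranks here and below are by H3K4me3 peak score among the 11458 promoter peaks, with rank 1 the highest. Across the 19 autosomes the bivalent share ran between 21.3% on chromosome 17 and 30.6% on chromosome 18.

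Most bivalent promoters lay wholly inside Polycomb domains. At 1942 of the 2938 the H3K27me3 peaks covered the entire H3K4me3 peak, and at the other classes of cover 100 promoters were covered by 90% to below 100%, 381 by 50 to 90%, 436 by 10 to 50% and 79 by less than 10%. The widest H3K27me3 peak at a bivalent promoter had a median width of 5088 bp (quartiles 2599 and 8740 bp), several times the median H3K4me3 peak. At the edge of the rule, H3K27me3 reached 1 bp into the Rab12 peak, 2 bp into Haus5 and 3 bp into Ist1, which count as bivalent. It ended next to the Zfp763 peak and 1 bp short of Etfa and Fbrsl1, which count as H3K4me3-only. The median H3K4me3-only promoter lay 20870 bp from the nearest H3K27me3 peak (quartiles 5944 and 55680 bp), and 452 of the 8520 lay within 1 kb of one. For the distance rule, the promoters just inside were Sfn and Aloxe3, at 2495 and 2496 bp, and those just outside Syngr3 and 4931414P19Rik, at 2501 and 2507 bp.

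Bivalent promoters had narrower and lower-scored H3K4me3 peaks than H3K4me3-only promoters. Their median width was 1587 bp (quartiles 1080 and 2199 bp), against 2265 bp (1800 and 2881 bp) for H3K4me3-only promoters. The peak score, a value the authors deposited with no stated scale, was used only to rank peaks, as a percentile among all promoter peaks in which 100 is the highest. The median percentile was 19.3 (quartiles 9.79 and 34.0) for bivalent promoters, against 60.2 (39.0 and 80.3) for H3K4me3-only promoters. The quartile ranges of the score percentile do not overlap, and the highest-scored 10% of bivalent promoters began at percentile 61.0, just above the H3K4me3-only median. Among the top-scored 50% of promoter peaks the order of the widths was reversed, with a median of 2749 bp for bivalent and 2628 bp for H3K4me3-only promoters. A wider peak meets more of the genome, so width enters the rule through the overlap, and these widths are a description.

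**Figure D1:**
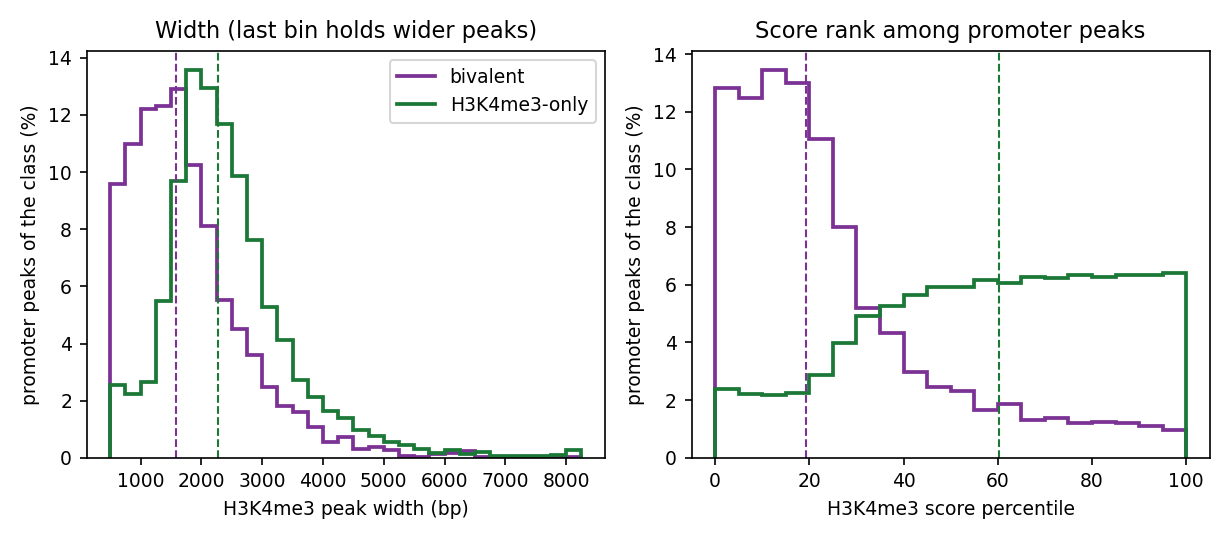
Width in bp (linear axis, the last bin holds wider peaks) and score percentile (0 lowest, 100 highest) of the H3K4me3 peaks at 2938 bivalent and 8520 H3K4me3-only promoters. Bivalent promoters gather at narrow widths and low percentiles, with medians of 1587 bp and 19.3, against 2265 bp and 60.2 for H3K4me3-only promoters.

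Sorted into 5 equal classes of H3K4me3 score, the bivalent share was 66.3% (64.3 to 68.3%) in the lowest class, then 36.7%, 12.0% and 7.42%, and 5.72% (4.80 to 6.75%) in the highest. By width it was 55.4%, 28.2%, 17.5%, 13.8% and 13.4% going from the narrowest to the widest class. Thus the weakest H3K4me3 promoters were mostly bivalent, and 131 bivalent promoters still stood in the highest score class. Their peak centres were less often downstream of the TSS, 76.2% (74.7 to 77.8%) for bivalent and 83.0% (82.2 to 83.8%) for H3K4me3-only promoters. The nearest gene was annotated as protein-coding at 95.2% of bivalent and 95.4% of H3K4me3-only promoters.

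RNAPII overlapped 80.5% of all promoter peaks, and the classes differed widely. It was present at 1140 of 2938 bivalent promoters, 38.8% (37.0 to 40.6%), against 8083 of 8520 H3K4me3-only promoters, 94.9% (94.4 to 95.3%). Where it was present, its peak covered a median of 51.9% of the H3K4me3 peak at bivalent promoters and 78.5% at H3K4me3-only promoters. The RNAPII peak there had a median percentile of 65.5 in the RNAPII list at bivalent promoters and 85.8 at H3K4me3-only promoters. So bivalent promoters met RNAPII less often, over less of their width and at lower RNAPII rank. On single autosomes the RNAPII share was 32.3 to 49% for bivalent and 91.3 to 96.6% for H3K4me3-only promoters, and these ranges do not overlap. The autosomes are parts of the same libraries and not replicates, so these ranges do not measure the spread between cultures.

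Ikaros overlapped 74.3% of all promoter peaks. It was found at 1209 bivalent promoters, 41.2% (39.4 to 43.0%), against 7301 H3K4me3-only promoters, 85.7% (84.9 to 86.4%). By autosome the Ikaros share was 33.7 to 50.4% for bivalent and 81.1 to 88.6% for H3K4me3-only promoters, again without overlap. The best Ikaros peak at an occupied promoter had a median percentile of 43.0 in the Ikaros list at bivalent promoters and 60.1 at H3K4me3-only promoters. Both classes usually held a single Ikaros peak per occupied promoter, with a median of 1 in each.

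**Figure D2:**
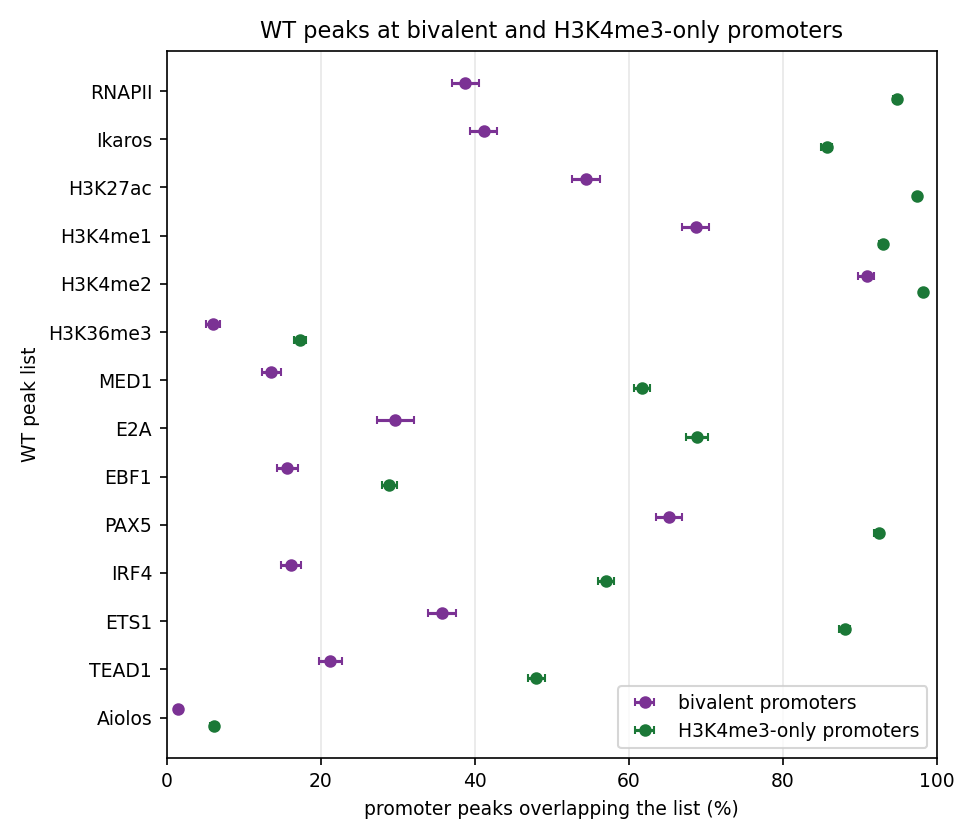
Share of bivalent and H3K4me3-only promoter peaks (%) that overlap each other WT peak list by at least 1 bp, with exact 95% Clopper-Pearson intervals for counting error. The bivalent share is the lower of the pair in each of the 14 lists, with the widest gap for RNAPII, 38.8% against 94.9%, and a narrow one for H3K4me2, 90.9% against 98.2%.

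RNAPII and Ikaros went together within the bivalent class. 789 bivalent promoters (26.9%) had both, 351 (11.9%) RNAPII alone, 420 (14.3%) Ikaros alone and 1378 (46.9%) neither. The H3K4me3-only class held 7144 promoters (83.9%) with both, 939 (11%) with RNAPII alone, 157 (1.84%) with Ikaros alone and 280 (3.29%) with neither. Ikaros was at 69.2% (66.4 to 71.9%) of bivalent promoters with RNAPII and at 23.4% (21.4 to 25.4%) of those without it. For H3K4me3-only promoters the same shares were 88.4% (87.7 to 89.1%) with RNAPII and 35.9% (31.4 to 40.6%) without it. The bivalent promoters with neither were the narrowest and lowest, with a median width of 1181 bp and a median score percentile of 11, while those with both had 2304 bp and 45.5.

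The RNAPII and Ikaros gaps between the classes were wide at low H3K4me3 scores and small in the highest score class. The RNAPII gap was widest in the second of the 5 classes. In the lowest score class RNAPII was at 14.8% (13.0 to 16.7%) of bivalent and 56.5% (52.9 to 60.0%) of H3K4me3-only promoters. In the second class the shares were 47.6% and 95.3%, in the third 82.2% and 98.7%, and in the fourth 92.9% and 99.8%. In the highest class RNAPII was at 99.2% (95.8 to 100%) of bivalent and 99.95% (99.7 to 100%) of H3K4me3-only promoters, a gap within the intervals. Ikaros was at 16.4% of bivalent and 47.7% of H3K4me3-only promoters in the lowest class. In the highest class it was at 94.7% (89.3 to 97.8%) of bivalent and 93.1% (91.9 to 94.1%) of H3K4me3-only promoters, and the intervals overlap. If H3K4me3-only promoters are weighted to the score classes of bivalent promoters, the RNAPII shares become 38.8% and 76.0% and the Ikaros shares 41.2% and 65.8%. Differences in score between bivalent and H3K4me3-only promoters within a score class were not weighted out. H3K27me3 cover was not matched across the score classes either. The median score percentile was 14.8 at wholly covered bivalent promoters and 62.0 at those covered by less than 10%.

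**Figure D3:**
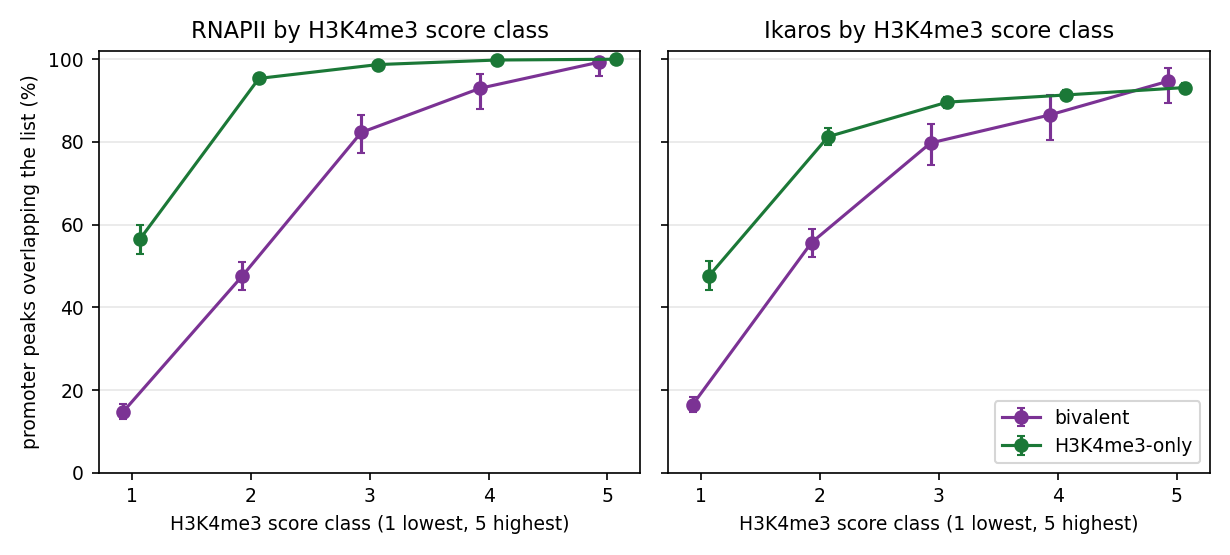
Share of promoter peaks (%) overlapping RNAPII and Ikaros in 5 equal classes of H3K4me3 score, bivalent and H3K4me3-only, with exact 95% Clopper-Pearson intervals. Bivalent promoters start at 14.8% for RNAPII and 16.4% for Ikaros in the lowest class, and the classes meet in the highest. The cover of bivalent promoters by H3K27me3 was not matched across the score classes.

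Among bivalent promoters, RNAPII and Ikaros followed how much of the H3K4me3 peak lay under H3K27me3. Of the 1942 wholly covered promoters, 20.4% (18.6 to 22.2%) had RNAPII and 26.9% (24.9 to 28.9%) had Ikaros. With 50 to 90% covered the shares were 69.3% and 62.7%, and with 10 to 50% covered 82.6% and 77.8%. The 79 promoters covered by less than 10% had RNAPII at 93.7% (85.8 to 97.9%) and Ikaros at 82.3% (72.1 to 90%), close to the 91.8% and 84.7% of H3K4me3-only promoters within 1 kb of an H3K27me3 peak. The H3K4me3 score moved along with cover: its median percentile was 14.8 at wholly covered promoters, 30.1 at 50 to 90%, 45.2 at 10 to 50% and 62.0 below 10%. The part of score in these shares by cover was not tested.

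**Figure D4:**
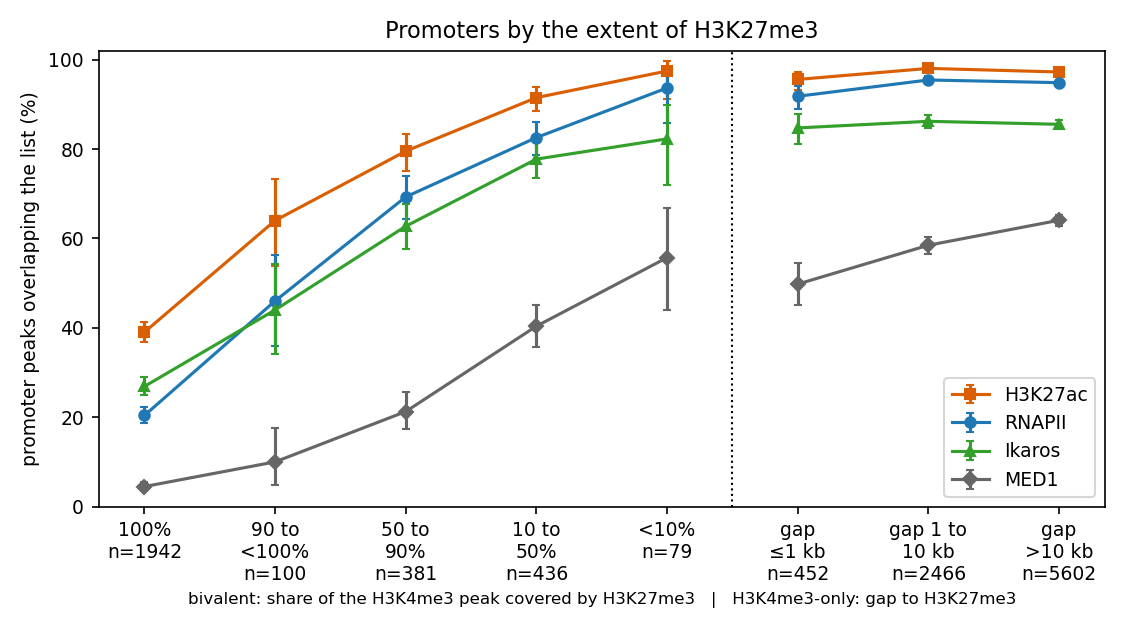
Share of promoter peaks (%) overlapping RNAPII, Ikaros, H3K27ac and MED1 by the part of the H3K4me3 peak covered by H3K27me3 and, for H3K4me3-only promoters, by the distance to the nearest H3K27me3 peak. RNAPII is at 20.4% of the 1942 wholly covered promoters, 93.7% of the 79 covered by less than 10%, and 91.8 to 95.5% in the 3 H3K4me3-only classes.

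Marks of active promoters and enhancers were less frequent at bivalent promoters. H3K27ac, the acetylation of active promoters and enhancers (86.4% of all promoter peaks), was at 54.5% (52.7 to 56.3%) of bivalent and 97.4% (97.0 to 97.7%) of H3K4me3-only promoters. MED1, a Mediator subunit (49.3% of all), was at 13.5% (12.3 to 14.8%) of bivalent and 61.7% (60.6 to 62.7%) of H3K4me3-only promoters. Both gaps changed with H3K4me3 score. H3K27ac was at 23.95% of bivalent and 73.45% of H3K4me3-only promoters in the lowest score class, and at 100% of both in the highest. MED1 was at 1.51% and 14.1% in the lowest class, and at 79.4% and 87.4% in the highest. The other marks here were not split by score class. H3K36me3, the mark of transcribed gene bodies (14.4% of all), was at 5.96% (5.13 to 6.87%) of bivalent and 17.3% (16.5 to 18.1%) of H3K4me3-only promoters. For the lower methylation states the gap was smaller than for H3K27ac and MED1. H3K4me1 (86.8% of all) was at 68.7% of bivalent and 93.1% of H3K4me3-only promoters, and H3K4me2 (96.3% of all) at 90.9% of bivalent and 98.2% of H3K4me3-only promoters.

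The sequence-specific factors were also less frequent at bivalent promoters, in different proportion. PAX5, the B lineage commitment factor (85.5% of all promoter peaks), was at 65.2% (63.5 to 67.0%) of bivalent and 92.4% (91.9 to 93.0%) of H3K4me3-only promoters. ETS1 (74.6% of all, on 18 autosomes) was at 35.8% of bivalent and 88.1% of H3K4me3-only promoters, and E2A (58.9% of all, on the 11 autosomes complete in its list) at 29.7% of bivalent and 68.9% of H3K4me3-only promoters. IRF4 (46.6% of all) was at 16.1% of bivalent and 57.1% of H3K4me3-only promoters. By H3K4me3 score its shares were 3.29% and 21.2% in the lowest class and 71.8% and 73.3% in the highest. The PAX5, ETS1, E2A, TEAD1, EBF1 and Aiolos shares were not split by score class. TEAD1, the Hippo pathway factor (41.1% of all), was at 21.2% of bivalent and 48.0% of H3K4me3-only promoters. EBF1 (25.5% of all) was at 15.6% of bivalent and 28.9% of H3K4me3-only promoters. Aiolos, the Ikaros relative with only 3514 peaks in its list (4.94% of all), was at 1.43% (1.03 to 1.93%) of bivalent and 6.15% (5.65 to 6.68%) of H3K4me3-only promoters. PAX5 was the factor with the highest bivalent share of the 8, Ikaros included, and its list was the longest of the factor lists, with 82361 peaks against 42655 for Ikaros.

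Bivalent promoters with RNAPII came closer to the H3K4me3-only class in H3K27ac and MED1. H3K27ac was at 88.0% (85.9 to 89.8%) of the 1140 bivalent promoters with RNAPII and at 33.3% (31.1 to 35.5%) of the 1798 without it. MED1 was at 31.8% of bivalent promoters with RNAPII and at 1.95% of those without it. The 8083 H3K4me3-only promoters with RNAPII had H3K27ac at 99.3% and MED1 at 64.7%, higher than the bivalent ones on both counts. H3K36me3 did not follow RNAPII within the bivalent class, with 5.53% (4.27 to 7.02%) of promoters with RNAPII and 6.23% (5.16 to 7.45%) of those without it.

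The genes behind the classes were read from 20 gene lists, against the 25.8% of all genes with a promoter peak that were bivalent. RNAPII was at a promoter peak of 81.2% of these 11098 genes. It was at 39.7% and Ikaros at 41.6% of the 2858 bivalent genes, each taken at the highest-scored bivalent peak. A listed gene without a promoter peak here may have a neighbouring gene as the nearest TSS of its peak, or a peak whose centre lies more than 2500 bp away. The lists were drawn up with earlier results of these data known, and their shares are given without a test. They also differed in H3K4me3 score. The median score percentile of bivalent members was 8.51 for Hox genes, 16.1 for developmental factors and 12.7 for epithelial genes. For H3K4me3-only members it was 68.1 for pre-B surface genes, 74.2 for ribosomal and 81.1 for housekeeping genes. It was 6.98 and 11.4 for those of the T lineage and stromal lists. The list shares were not split by score class, and the part of score was not tested. Among the genes named below, Hoxa7, Hoxa9, Foxc1, Rag1, Rag2, Cd79a, Vpreb1, Il7r, Pou2f2 and Ikzf2 were chosen after their values were seen. So were Epcam, Ocln, Col1a1, Pdgfra, Fos, Cbx7, Pcgf1 and Phc2.

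Regulators of body plan and organ formation were bivalent wherever they had a promoter peak by the 2500 bp rule. 15 of 39 Hox cluster genes had a promoter peak and all 15 were bivalent, and so were all 38 of the 73 listed developmental transcription factors that had one. RNAPII was at 2 of the 15 and 4 of the 38. Hoxa13 had a 1629 bp peak at rank 9195, entirely within an H3K27me3 peak of 82957 bp that also spanned Hoxa3, Hoxa7 and Hoxa9, and had neither RNAPII nor Ikaros. Hoxb4, a homeobox gene known for its role in blood stem cells, was the highest-ranked of the Hox cluster genes at 6466 and had RNAPII over 52.3% of its 2039 bp. Otx1, a homeobox gene of forebrain development, had a wholly covered peak of 3669 bp at rank 5513, with Ikaros and without RNAPII. Tbx2, a T-box regulator of heart development, had a wholly covered peak at rank 7934, with neither RNAPII nor Ikaros. Foxc1, a listed developmental factor gene without a promoter peak by the rule, went the other way. An H3K4me3 peak of 7295 bp spanned its TSS with a centre 2568 bp away, with RNAPII and without H3K27me3.

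Signalling genes of development were also mostly bivalent where they had a promoter peak. Of 30 Wnt ligand and receptor genes 17 had a promoter peak and 14 were bivalent, 3 of them with RNAPII. Of 36 Bmp, Fgf and hedgehog ligand genes 16 had a promoter peak and 12 were bivalent, 4 with RNAPII. Wnt5b, a Wnt ligand, and Fzd4, a Frizzled receptor, had wholly covered peaks without RNAPII at ranks 7061 and 7167. Fzd9, another Frizzled receptor, was covered over 55.5% and had RNAPII across its entire 3461 bp. The Wnt co-receptor genes differed: Lrp5 was bivalent, wholly covered at rank 3460, and Lrp6 was H3K4me3-only at rank 1277. Within the growth factor list, Tgfb2 was bivalent at rank 7210 and Tgfb1 H3K4me3-only at rank 97. Of 40 neuronal channel and receptor genes 11 had a promoter peak and 10 were bivalent, 3 of them with RNAPII. Cacna1b, a voltage-gated calcium channel gene, was wholly covered at rank 8261, with RNAPII over 31.6% of its 2011 bp.

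**Figure D5:**
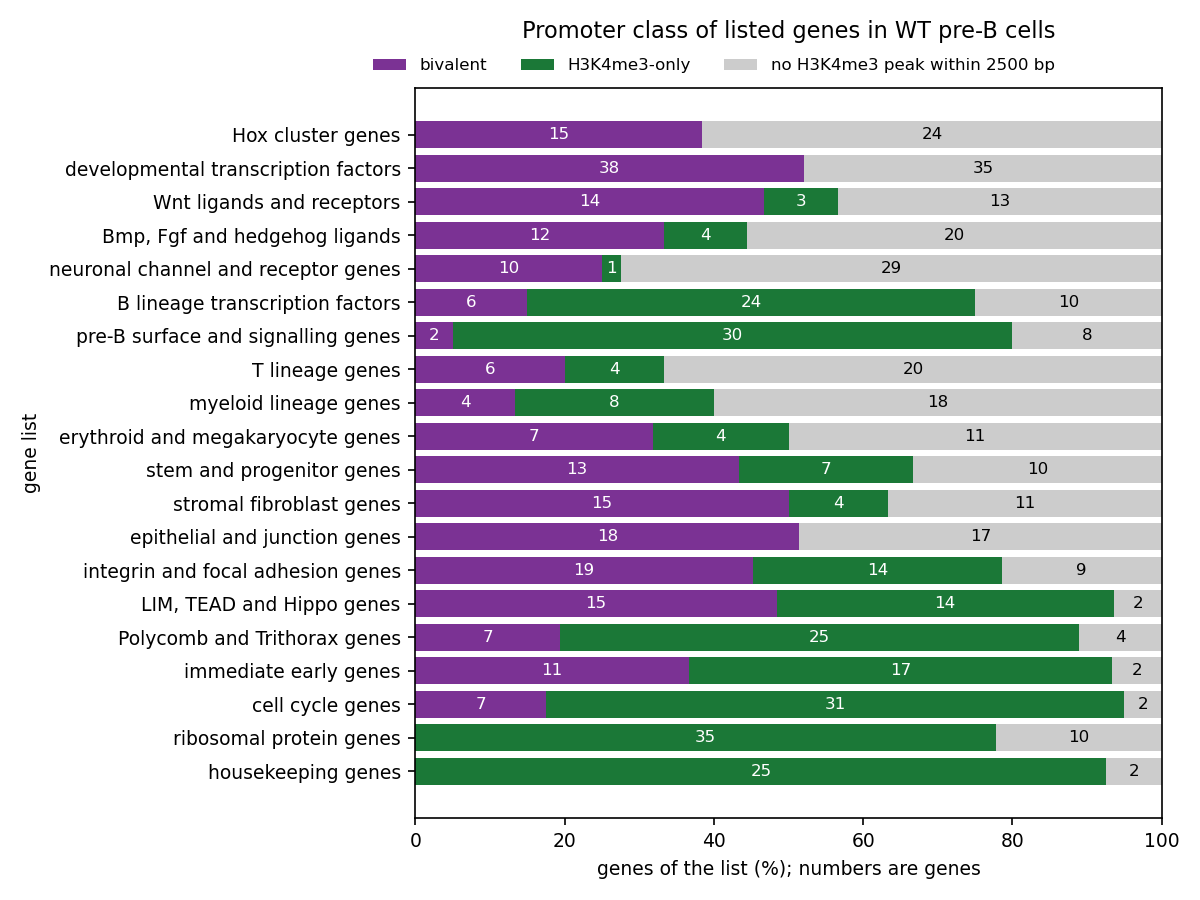
Number of genes in each of the 20 lists with a bivalent promoter, an H3K4me3-only promoter or no promoter peak. Hox genes (15 bivalent, 0 H3K4me3-only) and developmental transcription factors (38 and 0) stand at one end, and ribosomal protein genes (0 and 35) and housekeeping genes (0 and 25) at the other.

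Genes that define the pre-B cell were mostly H3K4me3-only. Of 32 pre-B surface and signalling genes with a promoter peak 2 were bivalent (6.25%, 0.766 to 20.8%) and 30 were H3K4me3-only, 27 of these with RNAPII. Igll1, which codes for the λ5 surrogate light chain, had an H3K4me3-only peak of 13323 bp at rank 7 with RNAPII along all of it. The pair of recombinase genes Rag1 and Rag2 and the IL-7 receptor gene Il7r were H3K4me3-only as well, with ranks of 8523, 8466 and 1957. The bivalent members were Cd9, a tetraspanin gene, covered over 90% at rank 8623, and Ciita, the class II transactivator gene, with a wholly covered 500 bp peak at rank 11130. Neither had RNAPII or Ikaros. No promoter peak was assigned to the other 8 genes of the list, among them Cd79a and Vpreb1. The housekeeping and ribosomal protein lists gave 0 bivalent genes of 25 and of 35 with a promoter peak, and RNAPII was at all of these promoters.

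Transcription factor genes of the B lineage were bivalent in a share near that of all genes, with an interval that overlaps that of the surface genes. Of 30 with a promoter peak 24 were H3K4me3-only and all 24 had RNAPII, while 6 were bivalent (20%, 7.71 to 38.6%), 5 of them with RNAPII. The H3K4me3-only members included Bcl11a at rank 3, Lef1 at rank 5 with a peak of 12361 bp, and the genes of the mapped factors Ebf1, Tcf3, Irf4 and Ikzf3. The bivalent members were Hhex, Bhlhe41, Id2, Klf2, Pou2f2 and Ikzf2. Hhex, a homeobox gene of early blood and B cell development, stood at rank 1256 with 22.2% of its 4395 bp covered. Id2, the E protein inhibitor, stood at rank 7401 with 61.3% covered, RNAPII at percentile 86.7 of its list and Ikaros at percentile 80.9 of its own. Ikzf2, which codes for the Ikaros relative Helios, was wholly covered at rank 8833 and had neither RNAPII nor Ikaros. Ikzf3, which codes for Aiolos, was H3K4me3-only at rank 8448, with RNAPII along its whole peak.

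The rule measures distance from the peak centre, and so leaves out 27 broad peaks that span a TSS with a centre more than 2500 bp away. 6 of the 10 B lineage factor genes without a promoter peak had such a peak: Pax5, Ikzf1, Bcl6, Ets1, Elf1 and Spib. The Pax5 peak was 15613 bp wide and the Ikzf1 peak 11442 bp, both with RNAPII and without H3K27me3. Bcl6, a germinal centre repressor gene, had a 500 bp H3K27me3 peak in its 10842 bp. Of the 27 peaks 3 met H3K27me3, the others being Irs1, an insulin receptor substrate gene, with 32.5% covered, and Bahcc1, wholly covered over 5800 bp. All 27 had RNAPII.

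Markers of other blood lineages were split. Of 30 T lineage genes 10 had a promoter peak and 20 had none. 6 of the 10 were bivalent (60%, 26.2 to 87.8%), none of the 6 with RNAPII. They included the T cell regulator genes Gata3, Tcf7 and Eomes. The other 4, among them Notch1 and Zap70, were H3K4me3-only, 3 of them with RNAPII. Of 30 myeloid genes 12 had a promoter peak and 18 had none. 4 of the 12 were bivalent (33.3%, 9.93 to 65.1%, an interval that holds the 25.8% of all genes). They included Cebpa and Cebpd, which code for C/EBP factors and had RNAPII over 14.7% and 82.4% of their peaks. The other 8, among them Gfi1 and Irf5, were H3K4me3-only, 7 of them with RNAPII. Of 22 erythroid and megakaryocyte genes 11 had a promoter peak. 7 of the 11 were bivalent, 2 with RNAPII, and 4 were H3K4me3-only, 1 with RNAPII. Klf1 was H3K4me3-only at rank 7217 with RNAPII, and Nfe2 at rank 9166 without it. Tal1, a basic helix-loop-helix regulator of blood formation, was wholly covered at rank 9226. Zfpm1, which codes for the GATA cofactor FOG1, was covered over 62.5% of a 6093 bp peak at rank 289, with RNAPII.

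Stem, adhesion, epithelial and Hippo pathway genes held many bivalent promoters. Of 20 stem and progenitor genes with a promoter peak 13 were bivalent, 5 with RNAPII, and 7 were H3K4me3-only, all 7 with RNAPII. The H3K4me3-only ones included Sox4 at rank 12 and Socs2 at rank 23. Lmo2, a LIM-only cofactor of blood progenitors, was covered over 88.5% at rank 2415, with RNAPII over 48.0% of its 2696 bp and an Ikaros peak at percentile 97.1 of its list. Of 35 epithelial and junction genes 18 had a promoter peak and all 18 were bivalent, 6 with RNAPII. Epcam and Ocln, which code for an epithelial adhesion molecule and a tight junction protein, were wholly covered at ranks 9079 and 10643, without RNAPII or Ikaros. Of 42 integrin and focal adhesion genes 33 had a promoter peak and 19 were bivalent, 6 with RNAPII, while all 14 H3K4me3-only ones had it. Ptk2, the focal adhesion kinase gene, was covered over 82.2% at rank 6294, with RNAPII and Ikaros.

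In the LIM, TEAD and Hippo list 15 of 29 genes with a promoter peak were bivalent and 14 H3K4me3-only, with RNAPII at 8 of the 15 and all 14. Lhx2, a LIM-homeobox gene, had 2 bivalent peaks, the higher at rank 5407 with 63.4% covered by H3K27me3, RNAPII over 65.3% of its 2606 bp and an Ikaros peak at percentile 89.1. The lower, at rank 8337, was wholly covered, with Ikaros and without RNAPII. Tead1, a DNA-binding partner of YAP, was wholly covered at rank 6736, and RNAPII ran along all 2937 bp. RNAPII and Ikaros were at Tead1 and at the higher Lhx2 peak, and also at the bivalent promoter of Ajuba, which codes for a LIM-domain adaptor, at rank 6789. The LIM cofactor genes Lmo4 and Ldb1 were H3K4me3-only at ranks 224 and 232.

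Markers of stromal fibroblasts were mostly bivalent where they had a promoter peak. Of 30 such genes 15 were bivalent, 4 H3K4me3-only and 11 without a promoter peak, and RNAPII was at 9 of the 15 and 2 of the 4. Thbs1, the thrombospondin gene, had the highest RNAPII percentile of any bivalent gene, 99.8, with H3K27me3 over 54.3% of its 4042 bp. Col1a1, a fibrillar collagen gene, was wholly covered at rank 9180, with RNAPII over 91.9% of its peak. Pdgfra, a fibroblast receptor gene, was wholly covered over 5700 bp without RNAPII. The H3K4me3-only members included 2 further collagen genes, Col1a2 at rank 9791 with RNAPII along its whole peak and Col6a1 at rank 9903 without RNAPII. Whether some of the H3K4me3 or RNAPII at these genes came from stromal cells was not tested.

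The bivalent members of the immediate early genes, which are switched on within minutes of a signal, all had RNAPII. Of 28 with a promoter peak 11 were bivalent (39.3%, 21.5 to 59.4%, an interval that holds the 25.8% of all genes) and 17 H3K4me3-only. RNAPII was at all 11, against 39.7% of all bivalent genes. The median H3K27me3 cover of the 11 was 82.6%. Their median score percentile was 61.8, against 19.3 for all bivalent promoters. RNAPII was at 92.9% of all bivalent promoters in score class 4 and at 82.25% in score class 3, counted from the lowest class. The part of score in the RNAPII share of these genes was not tested. Fosl2 had a wholly covered peak of 6708 bp at rank 1880, with RNAPII over 93.5% of it at percentile 98.1. Atf3, a stress-induced factor, was wholly covered over 4987 bp at rank 4065. Nr4a2, a nuclear receptor gene, was covered over 32.7% and Fosb over 18.4%, with RNAPII over 90.6% and 89.6% of their peaks. Nr4a2 also had an H3K4me3-only peak of 2043 bp at rank 4015. Fos carried a 500 bp H3K27me3 peak over 12.8% of its 3905 bp. Myc, a growth regulator in the same list, was H3K4me3-only at rank 50.

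Cell cycle and chromatin regulators were bivalent about as often as all genes with a promoter peak, and some of their bivalent members ranked high. Of 38 cell cycle genes with a promoter peak 7 were bivalent (18.4%, 7.74 to 34.3%), 5 with RNAPII. Cdk6, a G1 kinase, stood at rank 20 with 38.2% of 6194 bp covered, and its partner cyclin gene Ccnd2 at rank 158 with 49% of 7971 bp covered. Cdk4 had H3K27me3 over 8.41% of its peak. The inhibitor locus Cdkn2a, which codes for p16 and p19 proteins and is a classical Polycomb target, had 2 bivalent peaks inside an H3K27me3 peak of 24483 bp, the wider at rank 5579 with RNAPII and Ikaros and the narrower at rank 10779 with neither. Among 32 Polycomb and Trithorax genes with a promoter peak 7 were bivalent (21.9%, 9.28 to 40.0%), 6 with RNAPII. All 7 code for Polycomb proteins of PRC1: Pcgf2 at rank 276, Cbx2 at rank 1461, Bmi1 at rank 1897 and Cbx8 at rank 5355, with 51.3%, 27.5%, 79.3% and 66.4% covered, and Cbx7, Pcgf1 and Phc2. The Trithorax-type methyltransferase genes Kmt2a and Kmt2c were H3K4me3-only at ranks 61 and 68.

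The widest bivalent peaks differed in how much of them lay under H3K27me3. Meis2, a homeobox gene, had the widest at 8080 bp, wholly covered, with RNAPII over 6.19% of it. Igf2bp3, which codes for an RNA-binding protein of fetal blood cells, was wholly covered over 6891 bp at rank 293, with RNAPII over 62.5%. Ptch1, the hedgehog receptor gene, was covered over 4.99% of 7176 bp at rank 55. The widest H3K4me3-only peaks were wider still, with Mef2d at 13680 bp, Igll1 at 13323 bp and Lef1 at 12361 bp.

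Some highly ranked bivalent promoters had no RNAPII. The first by H3K4me3 score was Plxnc1 at rank 1080, with a wholly covered peak of 3527 bp, an Ikaros peak at percentile 51.4 and H3K27ac. Mir1901 came next at rank 3072. Tox, which codes for an HMG-box regulator of T cell development, stood at rank 3167, wholly covered over 2698 bp and with 2 Ikaros peaks. The first H3K4me3-only promoter without RNAPII, at 2610307P16Rik, stood at rank 2159. Above rank 1080, RNAPII was at every promoter of both classes. The highest Ikaros percentile at a bivalent gene was 99.4 at Plxdc1, a plexin domain protein gene, where H3K27me3 covered 500 bp of a 6300 bp peak.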

How the data were processed

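The data are peak lists from ChIP-seq libraries of WT stromal-adherent pre-B cells, 1 library per target. Per the submitters' processing notes, bcl2fastq 1.8.3, BWA, STAR and HOMER were used, with mm10 and mm9 named as builds. The caller's settings are not given in the sources used here. Per the file headers, each list gives peak coordinates, a peak score, the nearest TSS with its gene and distance, and an annotation of the peak centre. The authors deposited the score without its scale, so it was used only to rank peaks within a list. The positions are those of mm10: for 8509 promoter peaks with a gene in RefSeq's GRCm38 table, peak centre and deposited distance gave a TSS within 1000 bp of the RefSeq one in 97.7%.

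Overlaps of at least 1 bp were counted with Python 3.11.15, numpy 2.4.6, pandas 2.3.3 and scipy 1.17.1, and the overlap code was tested on simulated intervals. A deposited start was taken as the base before the first, since the deposited region size equals end minus start. E2A was used on 11 autosomes and ETS1 on 18, because elsewhere these lists end over 10 Mb short of the final peak seen in any list. A gene was bivalent if any of its promoter peaks was. Percentiles of RNAPII and Ikaros are ranks within their own lists, for the best peak at the promoter. Members and gene lists were chosen with earlier results of these data known.

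Named genes are, per list, up to 4 bivalent and 2 H3K4me3-only genes with the highest H3K4me3 score, the 5 widest of each class, the 5 bivalent genes with the best RNAPII and the best Ikaros rank, the 5 highest-scored of each class without RNAPII, and the genes of the mapped factors. Not all are printed. Alternatives changed the overlap, distance, score and chromosome rules and weighted the classes to equal score or width. X and Y entered 1 alternative only, and the lists of the dominant-negative genotype were left out.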

Additional observations from a re-analysis of the deposited data

How the results depend on the processing

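Of 43 recomputed values for 5 results (the bivalent share, the RNAPII and Ikaros share differences, bivalent minus H3K4me3-only in percentage points, and the median width and score percentile differences), 25 stayed within the 95% interval of the reported value, 17 moved outside it and 1 changed sign. The values in the report are 25.6%, -56.1, -44.5, -678 bp and -40.9. With at least 50% of the H3K4me3 peak covered they were 21.2%, -65.1, -52.1, -802 bp and -43.1. With the top-scored 50% of the H3K27me3 list the bivalent share was 24.6%, and within 1000 bp of a TSS the score percentile difference was -42.0. Among the top-scored 50% of H3K4me3 promoter peaks the bivalent share was 7.30%, the RNAPII difference -6.42, the Ikaros difference -4.27 and the score percentile difference -11.2. The width difference there was 121 bp, so that bivalent peaks were the wider. The cause was not tested. With the top-scored 50% of the RNAPII or Ikaros list, the differences were -63.3 for RNAPII and -38.2 for Ikaros. With H3K4me3-only promoters weighted to the score classes of bivalent ones they were -37.2 for RNAPII and -24.6 for Ikaros, and weighted to the width classes -45.9 and -32.8. The alternative that adds peaks with a TSS inside was chosen after seeing the data.

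No paired analysis was possible because each target has 1 WT library. The limits are those of peak lists: absence of a peak is absence of a call at a depth that is unknown here. The libraries carry no replicate, so the spread between cultures is unknown for every share.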

Other observations

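H3K4me3 peaks away from promoters were split by the same overlap, as values outside the comparison of the report. Of 6999 autosomal H3K4me3 peaks with a centre more than 2500 bp from a TSS, 1132 (16.2%) met an H3K27me3 peak. RNAPII was at 23.8% of those with H3K27me3 and at 63.0% of those without it, and Ikaros at 39.5% and 59.3%. The median width was 983 bp with H3K27me3 and 807 bp without it, so that away from promoters the peaks with H3K27me3 were the wider ones. At promoters the order of the medians was the other way round, 1587 bp for bivalent and 2265 bp for H3K4me3-only peaks.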
